A study of Arabidopsis thaliana with 16 samples.

Results

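Some genes of Arabidopsis thaliana help to build the proteasome, cap its barrel or bridge its parts. A group of 10 of these was followed across the 16 RNA sequencing libraries of the series: UMP1A, UMP1B, NAS2, NAS6, HSM3, PBAC2, PBAC3, PBAC4, PA200 and ECM29. They were found by their gene identifiers and are 10 of the 33602 genes in the count tables. All 10 passed the filter on low counts that left 21205 genes for testing.

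The question of the series is what seedlings do when their proteasome is blocked or weakened. Wild-type Col-0 seedlings were placed in 100 µM MG132, a peptide aldehyde that inhibits the proteasome, for 3 h (4 libraries) or for 24 h (4 libraries). Seedlings of rpn10-1 (2 libraries) and rpn12a-1 (2 libraries) were not treated with MG132, and neither were the Col-0 seedlings that served as control (4 libraries). Both mutants are exon-trap lines, in which an insertion disturbs 1 subunit gene of the regulatory particle, RPN10 or RPN12A. All seedlings were 5 days old, grown whole in liquid culture under constant light. The control was taken at once and had no mock treatment, so MG132, its solvent, fresh medium and the time passed cannot be told apart. Whether replicates were separate cultures is not stated in the labels, and p-values therefore cover only the spread among these libraries, which may be technical. In whole seedlings, fewer cells of a type and less RNA per cell cannot be told apart.

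The proteasome degrades proteins tagged with ubiquitin. Its core particle is a barrel of stacked alpha and beta rings with the proteolytic sites inside, and the regulatory particle, made of a base with ATPases and a lid, binds the ends of the barrel. Neither part forms unaided. In yeast and mammals, PBAC (or Pba) chaperones assemble the alpha ring, UMP1 guides the beta ring and the closing of the barrel, and NAS2, NAS6 and HSM3 (the counterparts of p27, p28 and S5b) hold the ATPase modules of the base until it docks. PA200 (Blm10 in yeast) is an alternative cap that can take the place of the regulatory particle, and ECM29 is a yeast adaptor that bridges core and regulatory particle.

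The libraries held 6646134 to 21762565 counts. Levels are given as CPM, counts scaled to library size. The mutated genes went with their labels: RPN10 averaged 21.8 ± 0.521 CPM in rpn10-1 (SD, n = 2) and 115 ± 18.2 CPM in untreated Col-0 (SD, n = 4), and RPN12A averaged 47.4 ± 6.47 CPM in rpn12a-1 (SD, n = 2) and 85.4 ± 13.8 CPM in untreated Col-0 (SD, n = 4). Replicates 3 and 4 of each Col-0 group and both rpn12a-1 libraries carry a technical replicate note in the labels, and the other 8 libraries do not. The model held a term for these library sets. All 5 shoot markers and all 6 root markers had counts in every library. The summed shoot markers ran from 34387 to 43609 CPM in untreated Col-0, from 29152 to 40593 CPM at 3 h and from 21554 to 27429 CPM at 24 h, so the 24 h libraries lay below both other groups. The summed root markers ran from 48.3 to 122 CPM at 24 h and from 81.4 to 179 CPM in untreated Col-0. The part of either in the results at 24 h was not tested. Summed seed storage transcripts stood at 0.838 and 63.1 CPM in the rpn10-1 libraries and at most at 4.66 CPM in any other library.

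The genes lie on all chromosomes but the fourth (TAIR10.1, RefSeq annotation, all protein-coding). UMP1A (AT1G67250) spans 25163599 to 25165056 on the minus strand of chromosome 1, and UMP1B (AT5G38650) spans 15470961 to 15472815 on the minus strand of chromosome 5. Both have 4 exons and encode 141 residues. Their coding sequences are 426 bases each, with 348 identical bases (81.7%) and no identical run longer than 32 bases. PBAC2 (AT3G18940) lies on chromosome 3 at 6526734 to 6529173, PBAC3 (AT5G14710) on chromosome 5 at 4746264 to 4747934, and PBAC4 (AT1G48170) on chromosome 1 at 17788763 to 17790246. NAS2 (AT5G57950) lies on chromosome 5 at 23460673 to 23462388, NAS6 (AT2G03430) on chromosome 2 at 1036008 to 1037675, and HSM3 (AT3G15180) on chromosome 3 at 5111873 to 5116068. PA200 and ECM29 are the long genes of the group. PA200 (AT3G13330, chromosome 3, 4319490 to 4330218) has 35 exons for 1811 residues. ECM29 (AT2G26780, chromosome 2, 11409828 to 11423776) has 35 exons for 1826 residues.

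Overlapping annotation limits some values. The library kit does not mark strand, so overlaps on the other strand count as well as those on the same strand. UMP1B shares 737 of its 789 exonic bases with APE1 (AT5G38660), a gene on the same strand named for acclimation of photosynthesis, so its counts and any ratio built on them are uncertain. PBAC4 shares 195 exonic bases with AT1G48160 on the other strand, PBAC3 shares 75 with AT5G14720 and ECM29 shares 232 with a long non-coding RNA. HSM3 shares 48 bases with PRPS20 on its own strand. NAS6 shares 2 bases with AT2G03410 on the other strand.

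The title of the series names a pair of NAC transcription factors, and the pentamer TGGGC is the core of the DNA element reported for NAC053 and NAC078. It was searched on both strands from 250 bases before to 50 bases after each annotated start. Of all 27443 promoters of protein-coding genes, 26.0% held at least 1 match, 14.5% at least 2 and 6.27% at least 3. Of the 10 genes, 7 held at least 1, 6 at least 2 and 4 at least 3. The 4 with 3 matches were UMP1A, UMP1B, HSM3 and PBAC2, and NAS2 and NAS6 had 2 each. The matches before the start lay between -110 and -10 bases from it, and none overlapped another. The single match of PBAC3 lay 10 to 14 bases after its start, and PBAC4, PA200 and ECM29 had none. All 250 bases before the start lie inside APE1 for UMP1B and inside AT1G48160 for PBAC4. For NAS2, 199 of them lie inside another gene on the same strand. Among the proteasome genes themselves, 16 of 24 core particle genes and 17 of 32 regulatory particle genes held at least 1 match. GAANNTTC, the inner part of a heat shock element, was searched the same way. It occurred in 11.6% of promoters and, of the 10 genes, in PBAC4 alone, at -189 to -182 from the start. A match is a description of the letters, not of binding, and no match says only that these letters are not in this window.

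Shown are the 6 genes that rose in every comparison with untreated Col-0 and whose upstream window overlaps no other annotated gene. This sets 4 genes with matches beside PA200 and ECM29, which have none. For each, the 120 bases that end at the start are given. They are from TAIR10.1, written 5′ to 3′ on the strand of the gene, with TGGGC or its reverse complement GCCCA in capitals. UMP1A is chr1:25165057-25165176 (minus strand), NAS6 is chr2:1037676-1037795 (minus), HSM3 is chr3:5111753-5111872 (plus), PBAC2 is chr3:6529174-6529293 (minus), PA200 is chr3:4330219-4330338 (minus) and ECM29 is chr2:11409708-11409827 (plus).
UMP1A: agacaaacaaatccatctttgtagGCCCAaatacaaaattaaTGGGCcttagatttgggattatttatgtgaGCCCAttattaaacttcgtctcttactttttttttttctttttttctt
NAS6: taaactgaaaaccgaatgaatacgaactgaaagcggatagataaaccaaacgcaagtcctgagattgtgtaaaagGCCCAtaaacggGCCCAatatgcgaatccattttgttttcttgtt
HSM3: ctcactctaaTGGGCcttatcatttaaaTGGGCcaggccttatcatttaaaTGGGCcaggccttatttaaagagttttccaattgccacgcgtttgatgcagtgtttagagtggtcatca
PBAC2: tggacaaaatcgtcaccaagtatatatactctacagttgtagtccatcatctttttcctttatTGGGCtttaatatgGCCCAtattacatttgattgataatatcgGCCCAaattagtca
PA200: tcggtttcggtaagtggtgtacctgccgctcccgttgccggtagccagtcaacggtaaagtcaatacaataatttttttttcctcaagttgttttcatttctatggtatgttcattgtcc
ECM29: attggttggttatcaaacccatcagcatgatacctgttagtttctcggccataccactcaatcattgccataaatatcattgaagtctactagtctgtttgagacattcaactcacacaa
In HSM3 all 3 matches read on the strand of the gene, and the 2 nearest the start stand in a short repeat. In NAS6 both read on the other strand, and UMP1A and PBAC2 have both orientations.

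**Figure D1:**
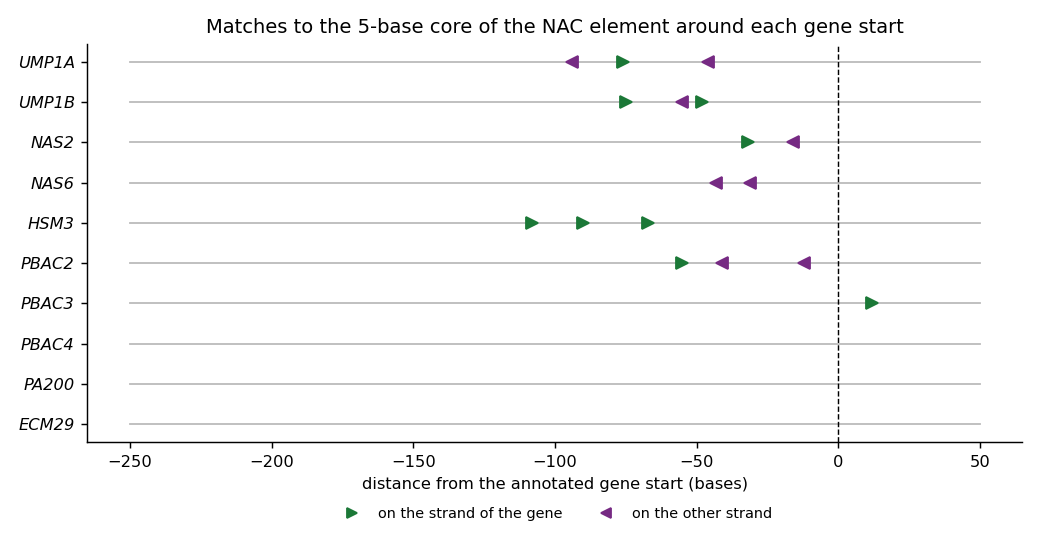
Positions of TGGGC matches from 250 bases before to 50 bases after the annotated start of each gene (x axis, bases; 0 marks the start), with triangles pointing right for the strand of the gene and left for the other strand. UMP1A, UMP1B, HSM3 and PBAC2 have 3 matches before the start, NAS2 and NAS6 have 2, and PBAC4, PA200 and ECM29 have none. The bases before the start of UMP1B, NAS2 and PBAC4 lie wholly or mostly inside other annotated genes.

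Levels between genes were compared per kilobase of exon. In untreated Col-0, UMP1A stood highest at 45.6 ± 7.81 CPM per kilobase and UMP1B lowest at 2.44 ± 0.341 (SD, n = 4). The other 8 lay close together, between 7.36 ± 0.694 for HSM3 and 14.3 ± 4 for PBAC2, and the ranges of mean ± SD of neighbours in that order overlapped throughout. At 24 h the order had spread out. UMP1A stood at 245 ± 58.9, PA200 at 105 ± 19.3, NAS6 at 65.6 ± 2.95 and ECM29 at 44.7 ± 7.16 CPM per kilobase (SD, n = 4), and the ranges of neighbours among these 4 did not overlap. PBAC2 at 41.1 ± 4.7 and HSM3 at 37 ± 5.67 overlapped with ECM29 or each other. NAS2, PBAC3, PBAC4 and UMP1B followed at 15.8 ± 1.61, 12.9 ± 2.12, 11.2 ± 1.63 and 9.1 ± 1.94 CPM per kilobase (SD, n = 4). UMP1A was the highest of the 10 and UMP1B the lowest in all 5 groups. UMP1B shares 737 of its 789 exonic bases with APE1, and how reads there were counted is not given. Its low rank is therefore uncertain.

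**Figure D2:**
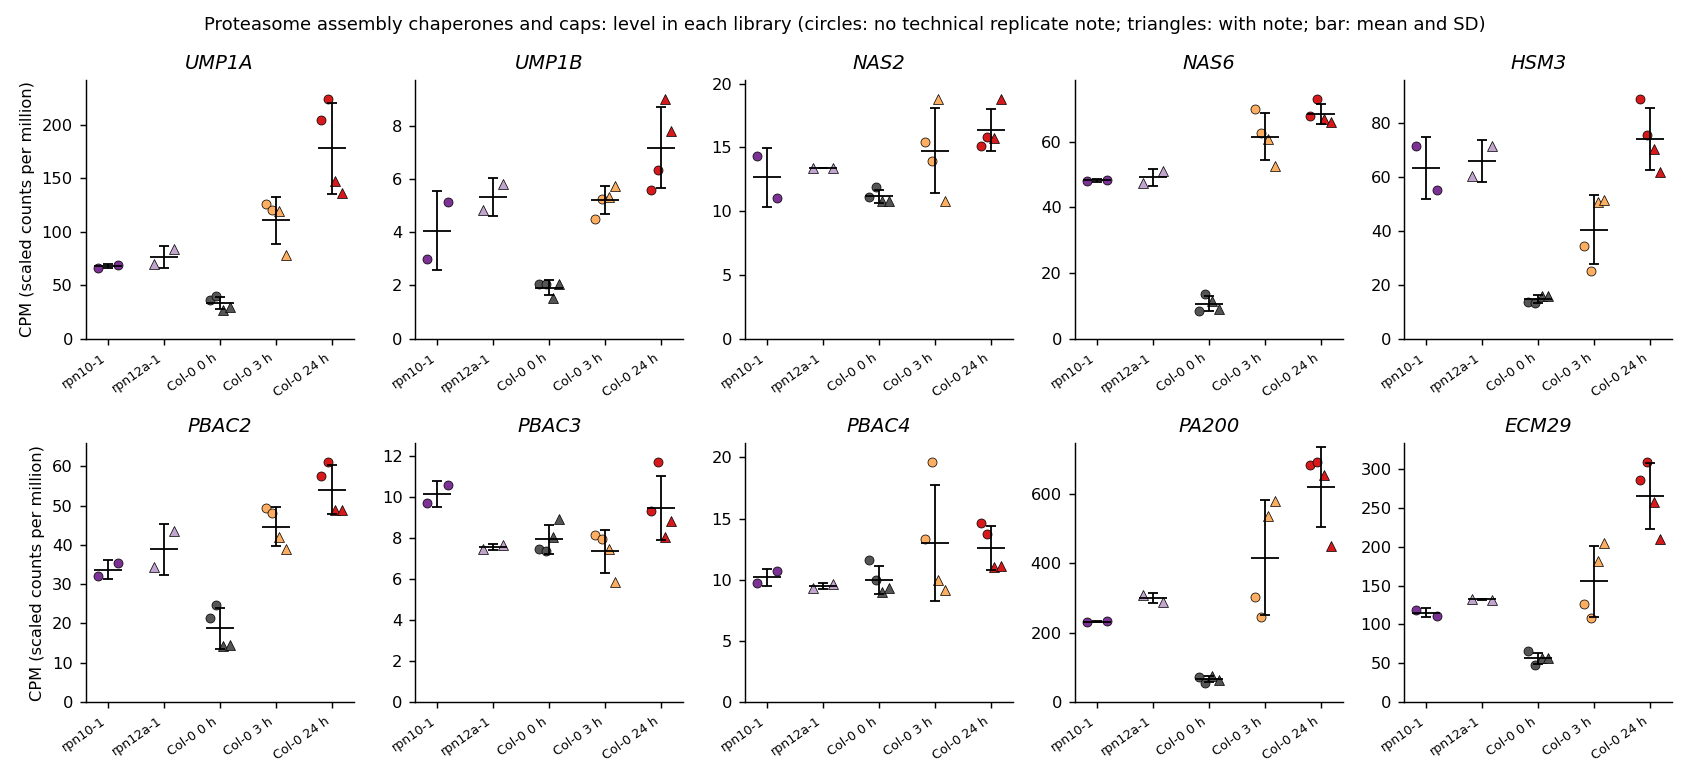
Level of each gene in every library (y axis, CPM, linear, a separate scale per gene) in rpn10-1, rpn12a-1 and in Col-0 at 0 h (untreated), 3 h and 24 h of MG132, with circles for libraries without and triangles for libraries with the technical replicate note, and a bar for the mean and SD. All libraries of the mutants and of both MG132 times lie above all untreated libraries for UMP1A, UMP1B, NAS6, HSM3, PBAC2, PA200 and ECM29, while the groups overlap for PBAC4.

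The first comparison asked what 3 h in MG132 did. Genes for UMP1, NAS6, HSM3, PBAC2, PA200 and ECM29 rose together, between 2.42-fold and 6.05-fold in the fit, while NAS2, PBAC3 and PBAC4 did not pass the test. In all, 7 of the 10 rose and 0 fell by edgeR's quasi-likelihood F-test at a Benjamini-Hochberg adjusted p under 0.05, where 8.68% of all tested genes were called higher and 9.24% lower. For the same 7, every treated library lay above every untreated one, as it did for 8.82% of all tested genes. At an unadjusted p under 0.05, 9 were higher and 0 lower, and DESeq2 also called 7 higher and 0 lower. The median log2 fold change over all 10 genes was 1.43, beside -0.01 over all tested genes.

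Among the factors of core particle assembly, UMP1A stood at 126, 120, 119 and 78 CPM at 3 h, against 35.8, 39.5, 27 and 29.8 CPM in untreated Col-0. Every treated library lay above every untreated one, although replicate 4 at 3 h lay well below the other 3. The log2 fold change was 1.75 (SE 0.126, edgeR adjusted p = 2.7e-07). UMP1B, the other UMP1 gene, stood at 4.49, 5.25, 5.32 and 5.75 CPM at 3 h, against 2.05, 2.05, 1.52 and 2.07 CPM in untreated Col-0. It had 20 to 76 counts per library in these groups. It rose by 1.43 (log2; SE 0.214, edgeR adjusted p = 0.0003) and the groups did not overlap. Its overlapping neighbour APE1 stood at 87.5 ± 15.2 CPM at 3 h and at 104 ± 19 CPM in untreated Col-0 (SD, n = 4 each), with a log2 fold change of -0.26 that was not called. The part of APE1 in the UMP1B counts was not tested. PBAC2, a chaperone of the alpha ring, stood at 49.4, 48.1, 41.9 and 39 CPM at 3 h, against 21.5, 24.8, 14.2 and 14.5 CPM in untreated Col-0, and rose by 1.28 (log2; SE 0.114, edgeR adjusted p = 1.9e-06).

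The other alpha ring chaperones were not called. PBAC3 stood at 8.15, 7.95, 7.49 and 5.84 CPM at 3 h, against 7.46, 7.38, 8.03 and 8.92 CPM in untreated Col-0, with a log2 fold change of -0.13 (95% interval -0.44 to 0.19, edgeR adjusted p = 0.61). PBAC4 stood at 13.3, 19.6, 9.98 and 9.18 CPM at 3 h, against 11.6, 9.94, 8.97 and 9.34 CPM in untreated Col-0, with a log2 fold change of 0.34 (95% interval 0.03 to 0.65, edgeR adjusted p = 0.13). For both, the libraries of the groups were mixed. The upper bounds of these intervals lie below the fold change of PBAC2, though the difference between the genes was not tested itself.

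Among the chaperones of the base, NAS6 had the larger rise. It stood at 70.1, 62.8, 61 and 52.6 CPM at 3 h, against 8.58, 13.7, 11.4 and 9.2 CPM in untreated Col-0, and rose by 2.53 (log2; SE 0.128, edgeR adjusted p = 7.4e-09). HSM3 stood at 34.5, 25, 50.6 and 51.2 CPM at 3 h, against 13.7, 13.3, 15.8 and 16 CPM in untreated Col-0. The groups did not overlap, and the 2 treated libraries with the technical replicate note stood above the 2 without. HSM3 rose by 1.44 (log2; SE 0.189, edgeR adjusted p = 0.00011). NAS2 stood at 15.4, 13.9, 18.8 and 10.8 CPM at 3 h, against 11.1, 11.9, 10.8 and 10.8 CPM in untreated Col-0, with a log2 fold change of 0.39 (95% interval 0.06 to 0.72, edgeR adjusted p = 0.1). Replicate 4 at 3 h was level with the untreated libraries, and without it NAS2 was called at a log2 fold change of 0.53.

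PA200 stood at 303, 245, 534 and 579 CPM at 3 h, against 71.5, 56.1, 74.8 and 64.5 CPM in untreated Col-0, and rose by 2.6 (log2; SE 0.22, edgeR adjusted p = 1.9e-06). ECM29 stood at 127, 108, 182 and 205 CPM at 3 h, against 65.2, 47.3, 56.2 and 57.4 CPM in untreated Col-0, and rose by 1.45 (log2; SE 0.182, edgeR adjusted p = 7.6e-05). For both, treated and untreated libraries were apart, and again the 2 treated libraries with the technical replicate note were the higher ones. Within the sets, the log2 fold change of PA200 was 3.02 with the note and 2.1 without, that of ECM29 was 1.79 and 1.06, and that of HSM3 was 1.69 and 1.15, all called. PA200 had a larger log2 fold change than NAS6 over all libraries and with the note (NAS6 2.48), and a smaller one without it (NAS6 2.59). UMP1B was called with the note (1.64) and not without it (1.23). Whether these rises differ between the sets was not tested.

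The subunits themselves gave a scale for these rises. All 24 core particle genes rose at 3 h, with a median log2 fold change of 1.5 between 0.69 for PAA1 and 3.19 for AT4G15165, a gene for an alpha subunit. Of the 32 regulatory particle genes, 27 rose and 0 fell, with a median of 1.33 between -0.05 for AT1G53780 and 3.4 for AT5G20000, which encodes an ATPase of the base. The log2 fold change of PA200 lay above those of 23 of the 24 core genes and 31 of the 32 regulatory genes. NAS6 lay above 23 and 30 of them, and UMP1A above 17 and 24. NAC053 and NAC078 rose by 1.29 (SE 0.195, edgeR adjusted p = 0.00035) and 0.68 (SE 0.0917, edgeR adjusted p = 0.00012) at 3 h, and by 0.82 (SE 0.195, edgeR adjusted p = 0.0069) and 0.34 (SE 0.0916, edgeR adjusted p = 0.014) at 24 h.

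After 24 h in MG132, the 7 genes that rose at 3 h were again higher than in untreated Col-0 and NAS2 joined them. Of the 10 genes, 8 rose and 0 fell, where 12.6% of all tested genes were called higher and 13.8% lower. For these 8, every library at 24 h lay above every untreated one, as for 12.7% of all tested genes. At an unadjusted p under 0.05, 9 were higher and 0 lower, and DESeq2 called 8 higher and 0 lower. The median log2 fold change over all 10 genes was 2.07, beside 2.08 for the core genes, 1.55 for the regulatory genes and -0.03 over all tested genes. The 4 untreated libraries are the same as above, so the comparisons against them are not independent.

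UMP1A stood at 204, 224, 147 and 136 CPM at 24 h, all above the untreated libraries, and rose by 2.41 (log2; SE 0.126, edgeR adjusted p = 7.4e-09). UMP1B stood at 5.58, 6.34, 9.01 and 7.79 CPM and rose by 1.89 (log2, SE 0.208, edgeR adjusted p = 1.2e-05). The overlapping APE1 had a log2 fold change of -0.41 (edgeR adjusted p = 0.043), and its part in the UMP1B counts was not tested. PBAC2 stood at 57.5, 61, 48.9 and 48.8 CPM and rose by 1.56 (log2; SE 0.113, edgeR adjusted p = 1.7e-07). PBAC3 at 9.33, 11.7, 8.06 and 8.85 CPM and PBAC4 at 14.6, 13.7, 11 and 11.1 CPM overlapped with their untreated libraries. Their log2 fold changes were 0.24 (95% interval -0.07 to 0.55, edgeR adjusted p = 0.24) and 0.33 (95% interval 0.02 to 0.64, edgeR adjusted p = 0.11). Without replicate 2 at 3 h, which is in the fit but not in this contrast, PBAC4 was called at 0.36.

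NAS6 stood at 68, 73.1, 67.1 and 66.1 CPM at 24 h and rose by 2.69 (log2; SE 0.128, edgeR adjusted p = 2.8e-09), with the smallest spread relative to its mean of the 8 genes called at 24 h. HSM3 stood at 88.8, 75.3, 70.1 and 61.7 CPM and rose by 2.35 (log2, SE 0.187, edgeR adjusted p = 6.1e-07). PRPS20, which shares 48 bases with HSM3, averaged 241 CPM at 24 h and 387 CPM in untreated Col-0. Its log2 fold change was -0.68 (edgeR adjusted p = 0.0093), and its part in the HSM3 counts was not tested. NAS2 stood at 15.1, 15.8, 15.7 and 18.8 CPM, above each untreated library, and rose by 0.56 (log2; SE 0.153, edgeR adjusted p = 0.016). This small rise was called in neither library set alone, where it was 0.43 without and 0.70 with the note. PA200 stood at 683, 690, 652 and 449 CPM, with replicate 4 apart from the rest, and rose by 3.23 (log2; SE 0.22, edgeR adjusted p = 1.8e-07). ECM29 stood at 286, 309, 258 and 210 CPM and rose by 2.24 (log2; SE 0.181, edgeR adjusted p = 7.6e-07).

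**Figure D3:**
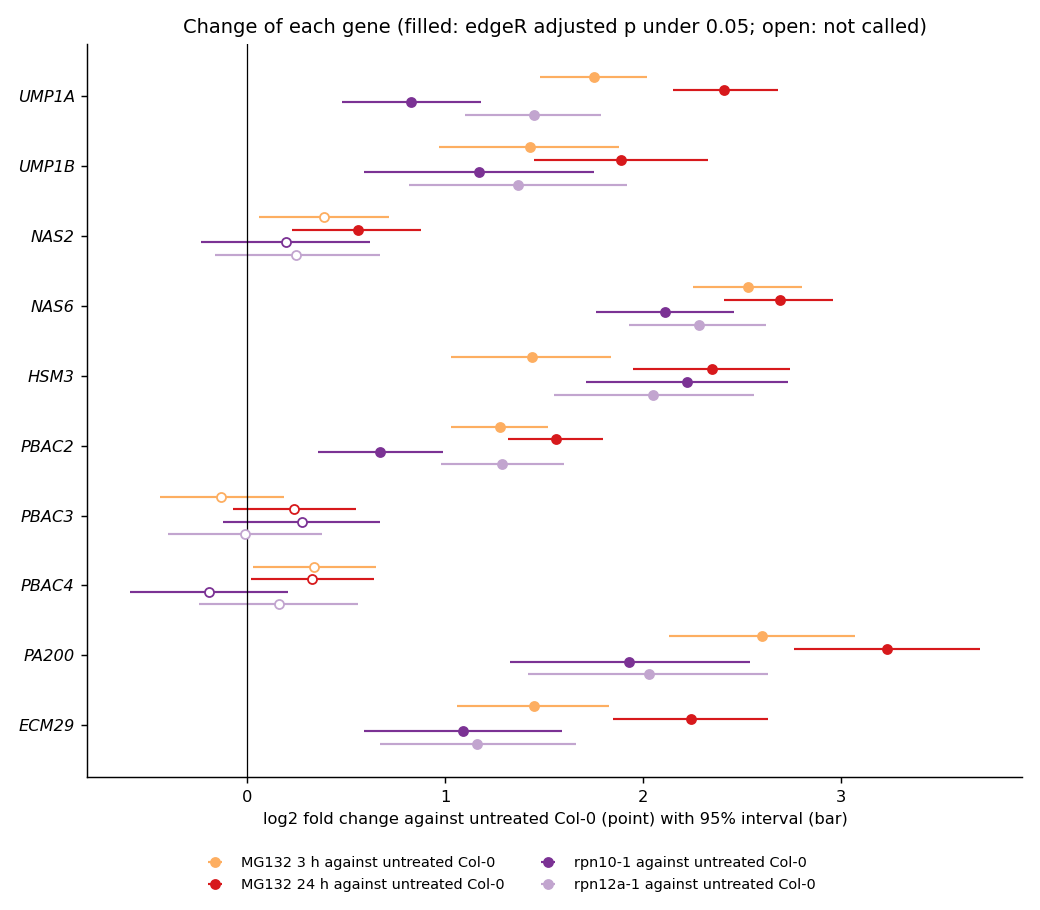
Log2 fold change against untreated Col-0 (x axis) of each gene (y axis) for MG132 at 3 h and 24 h, rpn10-1 and rpn12a-1, with bars for the 95% interval of the edgeR fit and filled points for an adjusted p under 0.05. UMP1A, UMP1B, NAS6, HSM3, PBAC2, PA200 and ECM29 are filled in all 4 comparisons, NAS2 at 24 h only, and PBAC3 and PBAC4 in none; the 4 comparisons share the untreated libraries.

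The times were also compared directly. UMP1A was 0.66 higher at 24 h than at 3 h (log2; SE 0.124, edgeR adjusted p = 0.0025), HSM3 0.91 higher (SE 0.183, edgeR adjusted p = 0.0043) and ECM29 0.79 higher (SE 0.18, edgeR adjusted p = 0.0093). These 3 of the 10 genes were called higher and 0 lower, where 8.27% of all tested genes were called higher and 7.76% lower. At an unadjusted p under 0.05, 7 were higher and 0 lower, and DESeq2 called 4 higher and 0 lower, the fourth being PA200. PA200 stood 0.64 higher in edgeR (log2; SE 0.219, adjusted p = 0.065), and was called without replicate 4 at 24 h (0.84) or without replicate 4 at 3 h (0.79). NAS6 was not called between the times, with a log2 fold change of 0.16 (95% interval -0.1 to 0.42, edgeR adjusted p = 0.4). NAC078 was lower at 24 h than at 3 h, with a log2 fold change of -0.34 (edgeR adjusted p = 0.022), and NAC053 had -0.47, which was not called (edgeR adjusted p = 0.11). Of the core genes, 20 of 24 were higher at 24 h than at 3 h, with a median of 0.52, and of the regulatory genes 7 of 32, with a median of 0.2.

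Within the library sets, this time difference was called in 1 set only. Without the note, 4 genes were called higher at 24 h than at 3 h: UMP1A by 0.8, HSM3 by 1.45, PA200 by 1.32 and ECM29 by 1.34 (log2, edgeR, 2 libraries a time). With the note, 0 were called by edgeR, with UMP1A at 0.54, HSM3 at 0.39, ECM29 at 0.29 and PA200 at -0.0013 (log2), and 3 genes at an unadjusted p under 0.05. For PA200 the libraries with the note stood at 652 and 449 CPM at 24 h and at 534 and 579 CPM at 3 h, which overlap. The libraries without it stood at 683 and 690 CPM at 24 h and at 303 and 245 CPM at 3 h. The difference between the sets was not tested.

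**Figure D4:**
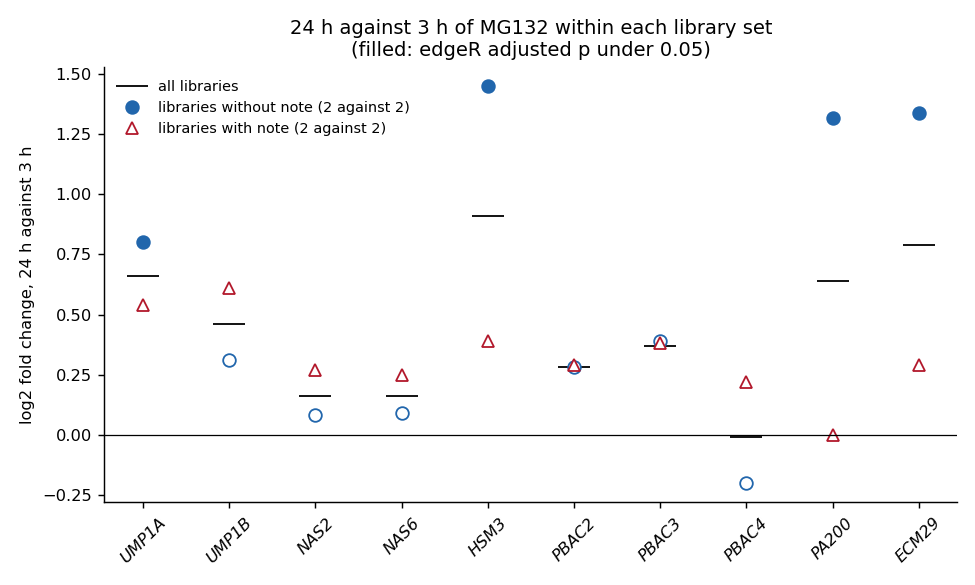
Log2 fold change at 24 h against 3 h of MG132 (y axis) for each gene in all Col-0 libraries (bars), in the 2 against 2 libraries without the technical replicate note (circles) and in the 2 against 2 with it (triangles), filled where the edgeR adjusted p is under 0.05. HSM3, PA200 and ECM29 lie at 1.45, 1.32 and 1.34 without the note and at 0.39, -0.0013 and 0.29 with it, while PBAC2 and PBAC3 lie close together in both sets.

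The comparison of each mutant with untreated Col-0 asked what changed where a subunit gene of the regulatory particle was mutated, without an inhibitor. The same 7 genes as at 3 h were higher in rpn10-1 and in rpn12a-1: UMP1A, UMP1B, NAS6, HSM3, PBAC2, PA200 and ECM29. In rpn10-1, 7 of the 10 rose and 0 fell, where 11.4% of all tested genes were called higher and 11.5% lower. In rpn12a-1, 7 rose and 0 fell, where 2.64% were called higher and 2.26% lower. Both libraries of rpn10-1 lay above all untreated ones for 8 of the 10 genes, the 7 and PBAC3, and for 19.4% of all tested genes. Those of rpn12a-1 did so for 8, the 7 and NAS2, and for 16.9% of all tested genes. At an unadjusted p under 0.05 and with DESeq2 the counts in both mutants were also 7 and 0. The median log2 fold change of the 10 genes was 0.96 in rpn10-1 and 1.33 in rpn12a-1, beside 0.01 and -0.01 over all tested genes.

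NAS6 stood at 48 and 48.5 CPM in rpn10-1 and at 47.4 and 51.1 CPM in rpn12a-1, against the untreated Col-0 range of 8.58 to 13.7 CPM. It rose by 2.11 in rpn10-1 (log2; SE 0.163, edgeR adjusted p = 4.6e-07) and by 2.28 in rpn12a-1 (SE 0.162, edgeR adjusted p = 2.6e-07). HSM3 stood at 71.3 and 55.2 CPM in rpn10-1 and at 60.2 and 71.3 CPM in rpn12a-1, against 13.3 to 16 CPM in untreated Col-0. Its log2 fold change of 2.22 in rpn10-1 (SE 0.239, edgeR adjusted p = 1.3e-05) compares with 2.05 in rpn12a-1 (SE 0.237, edgeR adjusted p = 4.3e-05). In each mutant the higher HSM3 library fell within the range at 24 h in MG132, 61.7 to 88.8 CPM, while all mutant libraries of NAS6 lay below its range at 24 h. NAS2 stood at 14.3 and 11 CPM in rpn10-1 and at 13.4 and 13.4 CPM in rpn12a-1, with log2 fold changes of 0.2 and 0.25 that were not called (edgeR adjusted p = 0.49 and 0.59).

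PA200 stood at 230 and 233 CPM in rpn10-1 and at 309 and 289 CPM in rpn12a-1, against 56.1 to 74.8 CPM in untreated Col-0. It rose by 1.93 (log2; SE 0.284, edgeR adjusted p = 0.00021) in rpn10-1 and by 2.03 (SE 0.283, edgeR adjusted p = 0.0003) in rpn12a-1. ECM29 stood at 119 and 111 CPM in rpn10-1 and averaged 133 ± 0.756 CPM in rpn12a-1 (SD, n = 2), against 47.3 to 65.2 CPM in untreated Col-0. Its log2 fold changes were 1.09 (SE 0.235, edgeR adjusted p = 0.0042) and 1.16 (SE 0.234, edgeR adjusted p = 0.0066). In rpn12a-1 the call of ECM29 was lost without replicate 1 (1.16) or without replicate 2 (1.19) of the mutant, at nearly the same fold change. Each time the lone mutant library left was assumed to vary like the other groups.

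UMP1A stood at 66.4 and 69 CPM in rpn10-1 and at 69.4 and 83.6 CPM in rpn12a-1, above all untreated libraries and below all libraries at 24 h. It rose by 0.83 in rpn10-1 (log2; SE 0.163, edgeR adjusted p = 0.0023) and by 1.45 in rpn12a-1 (SE 0.162, edgeR adjusted p = 3.2e-05). The fit sets each mutant against Col-0 after the library set, and untreated UMP1A was 35.8 and 39.5 CPM without the note, the set of rpn10-1, and 27 and 29.8 CPM with it, the set of rpn12a-1. UMP1B stood at 3.01 and 5.12 CPM in rpn10-1 and at 4.82 and 5.83 CPM in rpn12a-1 and rose by 1.17 (log2; SE 0.271, edgeR adjusted p = 0.0066) and 1.37 (SE 0.258, edgeR adjusted p = 0.0043). Both calls of UMP1B were lost without replicate 2 of the mutant, at 0.75 in rpn10-1 and 1.24 in rpn12a-1, and its rise in rpn10-1 was not called within its own library set (0.95).

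PBAC2 stood at 32 and 35.4 CPM in rpn10-1 and at 34.3 and 43.5 CPM in rpn12a-1, against 14.2 to 24.8 CPM in untreated Col-0. It rose by 0.67 (log2; SE 0.146, edgeR adjusted p = 0.0042) and 1.29 (SE 0.144, edgeR adjusted p = 3.5e-05). PBAC3 stood at 9.72 and 10.6 CPM in rpn10-1, above the untreated range of 7.38 to 8.92 CPM, and at 7.47 and 7.67 CPM in rpn12a-1, with log2 fold changes of 0.28 (95% interval -0.12 to 0.67, edgeR adjusted p = 0.29) and -0.01. AT5G14720, which overlaps PBAC3 on the other strand, rose by 0.6 in rpn10-1 (log2; edgeR adjusted p = 0.03), and its part in the PBAC3 counts was not tested. PBAC4 stood at 9.72 and 10.7 CPM in rpn10-1 and at 9.35 and 9.69 CPM in rpn12a-1, within the untreated range, with log2 fold changes of -0.19 and 0.16 that were not called and whose signs turn without the library set term, to 0.03 and -0.07.

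Among the subunits, all 24 core genes were higher in each mutant, with medians of 1.28 in rpn10-1 and 1.77 in rpn12a-1. Of the 32 regulatory genes, 24 were higher and 3 lower in rpn10-1, and 24 were higher and 1 lower in rpn12a-1, with medians of 0.91 and 1.33. The mutated gene is among the lower ones each time. The log2 fold change of NAS6 lay above those of 30 of the 32 regulatory genes in each mutant, and above 21 of the 24 core genes in rpn10-1 and 19 in rpn12a-1. NAC053 and NAC078 were not called in a mutant, with log2 fold changes of -0.01 and -0.1 in rpn10-1 and of -0.02 and 0.09 in rpn12a-1 (edgeR adjusted p from 0.58 to 0.99).

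Set directly against each other, rpn12a-1 and rpn10-1 gave 0 called genes of the 10 in edgeR, where 3.85% of all tested genes were called higher and 2.46% lower. At an unadjusted p under 0.05, 2 were higher in rpn12a-1, UMP1A by 0.62 (log2; 95% interval 0.18 to 1.06, edgeR adjusted p = 0.083) and PBAC2 by 0.62 (0.23 to 1, edgeR adjusted p = 0.058). DESeq2 called these same 2 higher. In edgeR, UMP1A was called without replicate 3 at 3 h (0.71) and PBAC2 without replicate 1 at 24 h (0.66). Both differences rest on the library set term. Without it they were 0.18 for UMP1A and 0.21 for PBAC2, and the mean levels were 76.5 CPM in rpn12a-1 and 67.7 CPM in rpn10-1 for UMP1A and 38.9 and 33.7 CPM for PBAC2 (n = 2 each). The intervals of the other 8 genes all included 0, the widest being that of PA200 (-0.67 to 0.86). Each mutant lies wholly in 1 library set, so the set is separated from the genotype here only through the Col-0 libraries. For PBAC4 the fit gave 0.35, although its CPM was the lower one in rpn12a-1.

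The 2 UMP1 genes could change by unequal amounts, which their ratio within a library shows. UMP1A stood 28-, 22.8-, 22.3- and 13.6-fold above UMP1B at 3 h, against 17.5-, 19.3-, 17.8- and 14.4-fold in untreated Col-0. At 24 h the ratio was 36.5, 35.3, 16.3 and 17.4, with the higher values in the libraries without the note. In the mutants it was 22 and 13.5 in rpn10-1 and 14.4 and 14.3 in rpn12a-1. The log2 ratio differed from untreated Col-0 by 0.29 at 3 h, 0.52 at 24 h, 0.01 in rpn10-1 and -0.25 in rpn12a-1 (two-sided exact permutation tests, p = 0.314, 0.286, 1 and 0.267, adjusted over 6 comparisons 0.629, 0.629, 1 and 0.629). The smallest p that 4 against 4 libraries allow is 0.0286, and 2 against 4 cannot go below 0.0667. The pooled test takes no account of the library set. Without the note, the log2 ratio was higher at 3 h than in untreated Col-0 by 0.46 and at 24 h by 0.97, and the libraries did not overlap. With the note it was higher by 0.12 and 0.08, and they overlapped. Within their own sets the mutants differed from untreated Col-0 by -0.09 (rpn10-1) and -0.15 (rpn12a-1), with overlap. These splits were made after the values were seen, and 2 against 2 libraries cannot go below an exact p of 0.333. UMP1B rests on 20 to 142 counts and lies almost wholly inside APE1, and the part of either in these ratios was not tested.

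For 3 of the genes, the tested genes whose log2 CPM ran most like theirs over the 16 libraries were sought among the 15586 genes outside the group with a mean of at least 5 CPM, after removal of the library set effect. Group differences dominate such correlations, and they are given as a description. Closest to UMP1A were the core subunit gene PAC1 (Pearson r = 0.987), DDI1, a ubiquitin family gene (0.983), and DSS1(V), a small subunit of the regulatory particle (0.982). Closest to NAS6 were PMZ, a zinc finger gene (0.992), AT3G07640 (0.985) and AT3G26340, a gene of the beta subunit family (0.985). Closest to PA200 were the regulatory genes RPN1B (0.993) and RPT1A (0.981), with AT5G26760 (0.99) between them. Core and regulatory genes made up 0.353% of the genes searched. Among the 50 genes most like it they numbered 16 for UMP1A, 33 for NAS6, 26 for PA200, 20 for HSM3, 30 for PBAC2 and 17 for ECM29, but 3 for NAS2 and 0 for PBAC3 and PBAC4. UMP1B lay below the minimum of 5 CPM.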

How the data were processed

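Groups were taken from the labels. Each library has 1 deposited table of unnormalized read counts. The submitters' processing notes name the TAIR10 build and Bowtie2, TopHat, Trimmomatic, HTSeq and edgeR as tools of the authors. How reads in overlapping genes were handled, the strand setting and versions are not given in the sources used. Reads that fall in shared exons may have been dropped or split, which bears most on UMP1B.

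From these counts, filterByExpr of edgeR 4.0.16 (R 4.3.3) kept 21205 genes, with TMM scaling of library sizes. A model with group and library set was fitted to all 16 libraries and tested with the quasi-likelihood F-test, two-sided, with Benjamini-Hochberg adjustment over all tested genes at 0.05. Standard errors and 95% intervals are Wald values from that fit. The steps were also run on simulated counts with 200 changed genes. These counts held no effect of library set, and the changed genes were drawn above a minimum level. The run therefore did not cover the set term or genes as low as UMP1B. Loci, overlaps and sequences are from the RefSeq annotation of TAIR10.1. It matched 32835 of the 33602 identifiers, and all 10 genes of this group.

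Alternatives were DESeq2 1.42.0, its size factors, no filter, no set term, the replicate block, each library set alone and leaving out each library. In their deviations from the group means, same-numbered libraries of 3 h and untreated Col-0 correlated at 0.227 to 0.496. Differently numbered libraries of the same set correlated at 0.356 to 0.446, and 4 of 8 libraries correlated best with their own number, so pairing by number cannot be told apart from the library set. The fit with a replicate block called 7 of the 10 genes at 3 h.

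The members and the lists of core and regulatory genes were chosen with earlier results of these data known. Named were the 10 genes, RPN10, RPN12A, NAC053 and NAC078, the extremes of both lists, and the 3 genes most correlated with UMP1A, NAS6 and PA200. Overlapping neighbours were named after their values were seen. Intervals cover the spread between libraries only.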

Additional observations from a re-analysis of the deposited data

Results flagged for a closer look

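Among the 30 sets of 4 libraries checked (10 genes in 3 Col-0 groups), the lowest library stood apart from the others in 3, where chance flags about 1 in 20. UMP1A had 78 CPM in replicate 4 at 3 h, UMP1B had 1.52 CPM in replicate 3 of untreated Col-0, and PA200 had 449 CPM in replicate 4 at 24 h. None of these libraries overlapped with the group it was compared against in the comparisons of MG132 with untreated Col-0.

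In 3 genes the level in MG132 differed between the times by the direct test. At 24 h against 3 h, UMP1A was 0.66 higher, HSM3 0.91 higher and ECM29 0.79 higher (log2, edgeR adjusted p = 0.0025, 0.0043 and 0.0093). In each of the 3 genes the difference had the same direction in both library sets, and it was called in the set without the technical replicate note and not in the set with it.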

How the results depend on the processing

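The text reports 1 fit, and 7 other settings besides leaving out each of the 16 libraries were run. Of the values of single genes against it, 1288 kept direction and call, 11 lost the call, 11 gained it and 30 changed sign, all of the last in values that were not called. No call against untreated Col-0 was lost outside those named in the report. With DESeq2, 2 genes of the 10 were called in rpn12a-1 against rpn10-1 in place of 0, and with the noted libraries alone 0 in place of 3 at 24 h against 3 h. Counts over all genes moved more: at 3 h 1228 without the note (3800 reported), at 24 h 3633 with it (5595), at 24 h against 3 h 1923 with and 5469 without it (3398), in rpn10-1 2735 without the set term (4873), in rpn12a-1 1983 without the filter and 2124 with the replicate block (1039), and in rpn12a-1 against rpn10-1 2137 with DESeq2, 3025 without the filter and 782 without the set term (1338). Leaving out 1 library gave 2008 to 4496 genes at 24 h against 3 h, 2235 to 5571 in rpn10-1, 495 to 1203 in rpn12a-1 and 478 to 2045 between the mutants, the lowest without 24 h replicate 1, rpn10-1 replicate 1, rpn12a-1 replicate 2 and rpn12a-1 replicate 2, in that order. Other libraries that moved a count by over 1.5 times were 24 h replicate 2 (2119 without it) and 3 h replicate 2 (2185) at 24 h against 3 h, untreated replicates 1 (3217) and 2 (3076) in rpn10-1, rpn12a-1 replicate 1 (564) in rpn12a-1, and rpn10-1 replicate 1 (804), rpn12a-1 replicate 1 (521) and 24 h replicate 1 (2045) between the mutants. Of the 10 genes it gave 7 to 8 at 3 h, 8 to 9 at 24 h, 3 to 4 at 24 h against 3 h, 6 to 7 in rpn10-1, 5 to 7 in rpn12a-1 and 0 to 1 between the mutants. The log2 UMP1 ratio ran from -0.35 to 0.36 in rpn10-1 and from -0.62 to 0.09 between the mutants. It turned to -0.04 at 24 h against 3 h with the note alone (0.23 reported) and to -0.09 in rpn10-1 without the note (0.01 reported), settings chosen after the values were seen. The cause of these moves was not tested.

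Values not called that changed sign were, at 3 h, PBAC3 at 0.12 without the note; at 24 h against 3 h, PBAC4 at 0.22 with the note and 0.02 without the filter, and PA200 at -0.0013 with the note; in rpn10-1, PBAC4 at 0.03 without the set term; in rpn12a-1, PBAC3 at 0.0032 with DESeq2 size factors, 0.0033 with DESeq2 and 0.01 without the filter, and PBAC4 at -0.07 without the set term and -0.29 with the replicate block; and between the mutants, HSM3 at 0.05 without the set term and 0.07 with the block, and PBAC4 at -0.10 with either. On leaving out 1 library, PBAC4 ran from -0.1 to 0.19 at 24 h against 3 h, NAS2 from -0.01 to 0.37 in rpn10-1 and PBAC3 from -0.05 to 0.11 in rpn12a-1. Between the mutants UMP1B ran from -0.15 to 0.62, NAS2 from -0.11 to 0.26, HSM3 from -0.33 to 0.04, PA200 from -0.05 to 0.24 and ECM29 from -0.02 to 0.19.

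The replicate block, fitted in place of the library set, changed no call of the 10 genes: 7 at 3 h, 8 at 24 h, 3 at 24 h against 3 h, 7 in each mutant and 0 between the mutants. Over all genes it called 3276 at 3 h (3800 reported). For 24 h the numbers are shared labels only, since same-numbered libraries correlated at -0.181 to 0.371 with untreated Col-0 and at 0.0479 to 0.136 with 3 h, and 4 and 5 of 8 libraries correlated best with their own number. In the mutants they are shared labels too. Same-numbered libraries correlated with untreated Col-0 at -0.0651 and 0.172 for rpn12a-1 and at -0.0829 and -0.132 for rpn10-1. The block also joins both rpn12a-1 libraries, which carry the technical replicate note, with untreated replicates that do not. Its counts in the mutants are therefore no check on the library set. Depth limits above all UMP1B, with 20 to 142 counts per library, and PBAC3, with 45 to 163.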
